A study of Pimephales promelas with 32 samples.

Results

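The genes described here are 145 gene models whose transcripts stood higher in both groups of chemically treated fathead minnow larvae than in control larvae. They were picked from 26150 models in the deposited table by their measured levels. A model was taken if its mean raw count over the 32 larvae was from 50 to under 10000. The mean level of each treated group also had to be at least 1.3 times that of controls, with at least 5 larvae of each treated group above the highest control larva. The level used was the count per library total, scaled to CPM (counts per 1000000). The model with protein accession Q6IQM2 was left out by rule. Of the 16456 models in this count range, 276 met both ratio conditions and 145 also met the condition on single larvae, which is 0.881% of the range. All 145 passed the low-count filter of the fit used below, but through this choice, so their number is not a result.

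Each sample was the whole body of 1 larva of Pimephales promelas, a small freshwater fish used in toxicity tests. Bifenthrin larvae (n = 10) were held for 48 h in water with 3.2 µg/L of this pyrethroid insecticide, and copper sulfate larvae (n = 11) for 48 h at 40 µg/L. Control larvae (n = 11) were held for 48 h without either chemical. The water of all groups, controls included, carried 0.002% DMSO. The labels give the age of the larvae both as 96 h and as 48 h after hatching, and no strain is named. Larvae were kept 10 to a beaker in 5 beakers per treatment, and at least 2 larvae per beaker were sequenced, but the labels do not say which larva came from which beaker. The p-values below treat larvae as independent, and would be too small if larvae of a beaker were alike. With 1 concentration of each chemical, the kind of chemical and the strength of its dose cannot be told apart.

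Bifenthrin holds open the voltage-gated sodium channels of nerve cells and muscle fibres, which leads to repeated firing. Dissolved copper disturbs sodium uptake at the gill and takes part in reactions that form oxidants. Beside changes tied to such actions, toxicants of unlike kinds are known to raise some of the same transcripts, among them those of chaperones, metal-binding proteins and detoxifying enzymes. Whether any of the 145 models belongs to these families is not known here, because the table gives protein accessions and enzyme classes without gene names. A level in whole-body RNA also cannot separate more RNA per cell from more cells of a kind.

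Library totals ran from 11440484 to 16007606 counts in bifenthrin larvae, from 11646077 to 16416225 in copper sulfate larvae and from 10655113 to 17993699 in controls. Libraries were run in lanes 6 and 7, with 5 and 5 bifenthrin larvae, 5 and 6 copper sulfate larvae and 6 and 5 controls.

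The mean raw count per larva of the 145 models, on which the rule set limits, had a median of 465 and ran from 54.5 to 8455, while the median over all models in the count range was 259.6. As the rule demanded, both treated groups stood above controls, and these ratios are given as a description. The mean CPM ratio of bifenthrin to control larvae had a median of 1.90 and reached 10.3. The ratio of copper sulfate to control larvae had a median of 1.58 and reached 6.69. Over all models in the count range the medians of these ratios were 0.942 and 0.946. The bifenthrin ratio was the larger one for 108 of the 145 models and the copper sulfate ratio for 37. This split was not counted over all models. In the count range, 1744 models met the bifenthrin ratio condition and 578 the copper sulfate one. A level at least 2 times that of controls was reached by 64 models in bifenthrin larvae, by 21 in copper sulfate larvae and by 18 in both. At 5 times that of controls or more there were 9 models for bifenthrin and 1 for copper sulfate.

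**Figure D1:**
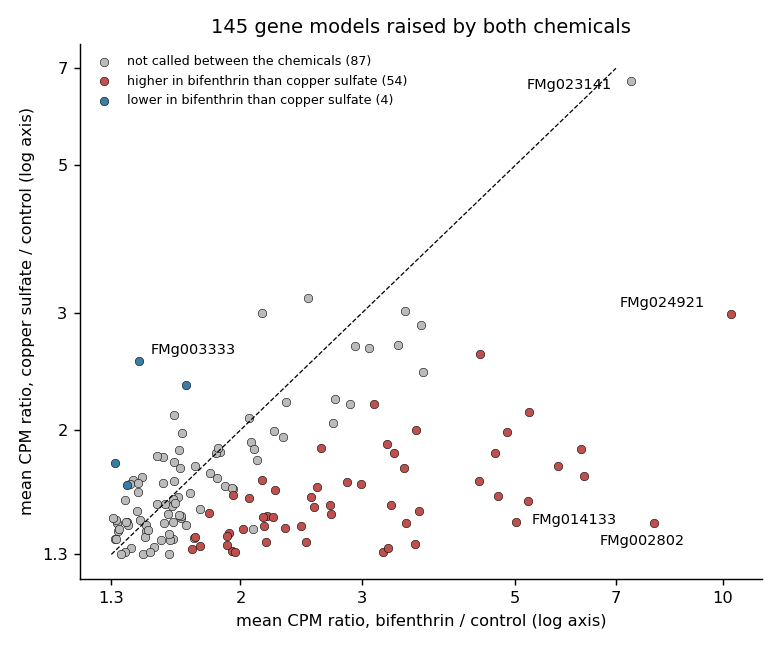
Mean CPM ratio to control of each of the 145 gene models in bifenthrin larvae (horizontal, log axis) and in copper sulfate larvae (vertical, log axis), with the line of equal ratios dashed. Colours give the edgeR call between the chemicals. Most points, 108 of 145, lie on the bifenthrin side of the line, a count not made over all models.

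Both contrasts with controls were used by the rule, so the edgeR counts for them are not tests and nothing is read from them. The quasi-likelihood test, fitted over all 21174 models with enough counts, called 144 of the 145 members higher in bifenthrin larvae, where 18% of all tested models were called higher. It called 133 members higher in copper sulfate larvae, where 3.58% of all tested models were. Over all tested models 20.2% were lower with bifenthrin, 38.2% in all being called, and 1.99% were lower with copper sulfate, 5.58% in all. The 12 members not called for copper sulfate had fitted log2 fold changes from 0.44 to 1.80, so some were large but uneven between larvae.

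The number of models in which a larva exceeded the highest control was a quantity the rule used, and it is given per larva as a description. Each bifenthrin larva exceeded the highest control for 114 to 135 of the 145 models, with a median of 123.5. Copper sulfate larvae exceeded it for 60 to 133 models (median 110.0). Copper sulfate replicates 5, 11 and 2 were lowest, with 60, 77 and 78 models, and all 3 were run in lane 7. Replicates 6, 14 and 8, also of lane 7, had 116, 114 and 110, while replicates 1 and 13 of lane 6 had 100 and 98. Replicate 4 was highest, with 133. It was within the range of bifenthrin larvae, as were replicates 7, 10, 6 and 14, with 121, 117, 116 and 114. Together the 145 models took 1.67 ± 0.148% of all counts in the 10 bifenthrin larvae, 1.29 ± 0.163% in the 11 copper sulfate larvae and 0.800 ± 0.0469% in the 11 controls (mean ± SD). The lowest treated larva, copper sulfate replicate 5, was at 1.02%, and the highest control at 0.873%. Treated larvae thus did not overlap controls in this share, which the choice of models shaped. The 2 treated groups did overlap, with copper sulfate larvae reaching 1.55% and bifenthrin larvae starting at 1.47%. No single control set the upper limit: each control larva was the highest control for 4 to 22 of the models.

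**Figure D2:**
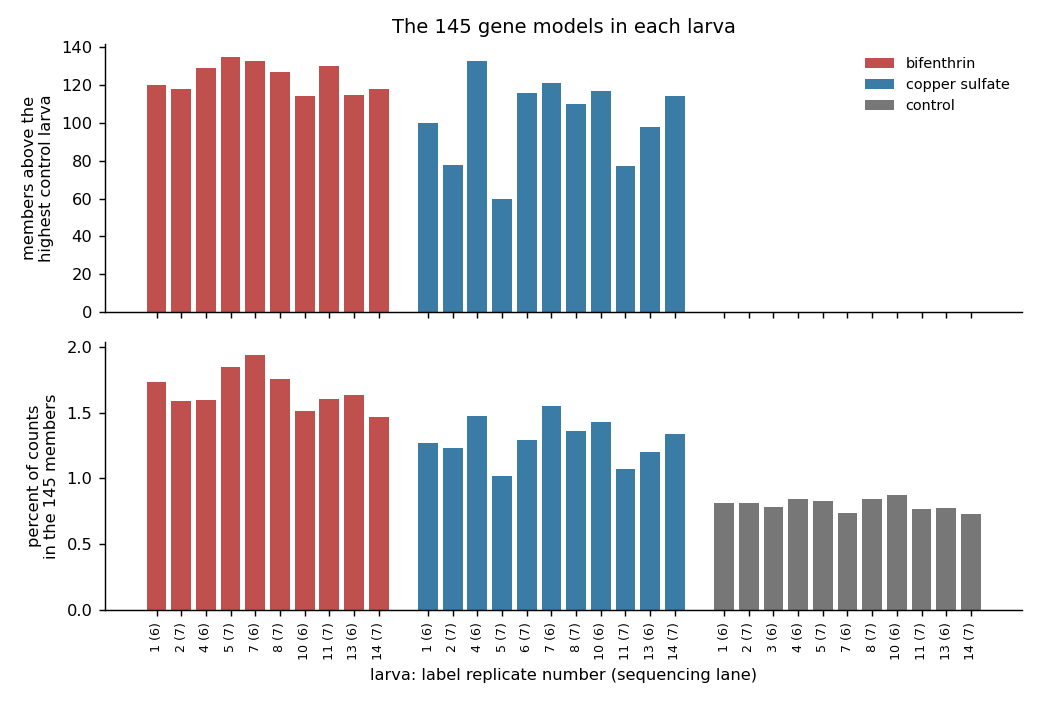
Top, number of the 145 gene models in which a larva exceeds the highest control larva. Bottom, percent of the larva's counts in these models. Larvae are labelled by replicate number with the sequencing lane in parentheses. Copper sulfate larvae range from 60 to 133 models and bifenthrin larvae from 114 to 135.

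In 9 models every bifenthrin and every copper sulfate larva lay above the highest control. The rule selected on larvae above the highest control, and this count was not made over all models, so it is a description only. The largest mean ratios to control were in FMg024921 (Q6NWA5), at 10.3 for bifenthrin and 2.99 for copper sulfate. It had 37.4, 73.1 and 111 CPM (lowest, median, highest) in bifenthrin larvae, 9.49, 17.3 and 53.1 CPM in copper sulfate larvae and 3.65, 7.81 and 9.46 CPM in controls. The lowest copper sulfate larva was thus just above the highest control, while 6 of 10 bifenthrin larvae were above every copper sulfate larva. FMg000370 (Q6DHJ4) had the same order at lower levels, with 9.32, 14.6 and 26.3 CPM in bifenthrin larvae, 4.57, 6.61 and 9.36 CPM in copper sulfate larvae and 2.11, 3.64 and 4.46 CPM in controls.

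In the other 7 of these models the bifenthrin ratio ran only from 1.33 to 2.24, and the copper sulfate ratio from 1.45 to 1.99. FMg014042 (F8W5L3) had 55.4, 83.5 and 105 CPM (lowest, median, highest) in bifenthrin larvae, 52.1, 66.0 and 119.9 CPM in copper sulfate larvae and 24.3, 35.8 and 48.4 CPM in controls. FMg016663 (Q86YI5, P10515) had 117, 159 and 189.7 CPM in bifenthrin larvae, 114, 164 and 198 CPM in copper sulfate larvae and 76.5, 94.5 and 111 CPM in controls. The 2 treated groups overlapped almost wholly in both models. FMg017101 (A0A0R4IRI3) had 98.0, 119.6 and 151 CPM in bifenthrin larvae, 109, 141 and 158 CPM in copper sulfate larvae and 50.7, 69.6 and 92.8 CPM in controls. FMg004703 (E7F5B6) had 285, 302 and 389.8 CPM in bifenthrin larvae, 295, 367 and 408 CPM in copper sulfate larvae and 182, 225 and 265 CPM in controls. Here the copper sulfate larvae tended to be the higher ones. For FMg001588 (Q803Q1) and FMg002211 (F1QMD5) the bifenthrin and copper sulfate ratios were 1.95 and 1.63, and 1.95 and 1.60. Of the 7, only FMg002211 was called between the chemicals, at 0.28 ± 0.09 on the log2 scale (SE) with an edgeR adjusted p of 0.0144. FMg000476 (Q7ZTH9), with ratios of 1.33 and 1.45, qualified because its controls were close together, from 55.1 to 73.8 CPM, below every bifenthrin larva, at 75.3 or more, and every copper sulfate larva, at 80.6 or more.

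**Figure D3:**
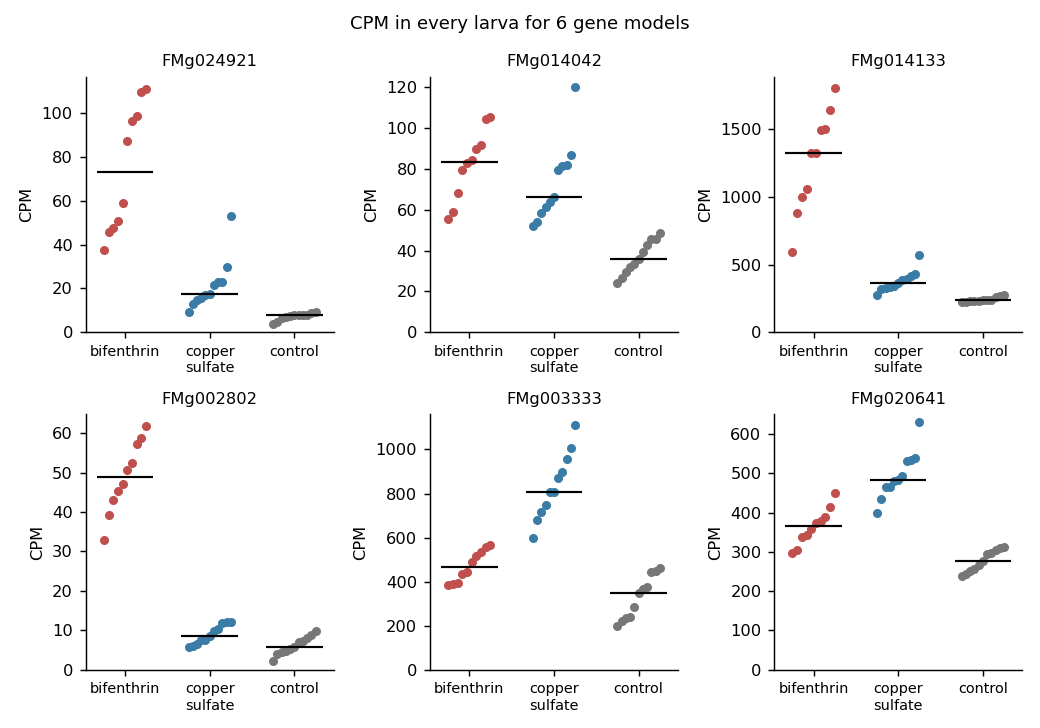
CPM of 6 gene models in every larva, with the group median as a line. FMg024921 and FMg014042 have every treated larva above the controls, FMg014133 and FMg002802 are highest with bifenthrin, and FMg003333 and FMg020641 with copper sulfate.

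The direct comparison of the chemicals was not a condition of the rule, although the rule used the level of each group against controls. Bifenthrin larvae were higher than copper sulfate larvae in 54 of the 145 models (37.2%) and lower in 4 (2.76%), by the edgeR quasi-likelihood test at an adjusted p under 0.05. Over all 21174 tested models 14.9% were called higher and 17.1% lower. The median log2 fold change, bifenthrin over copper sulfate, was 0.20 over the 145 models and -0.02 over all tested models. Both groups' levels had entered the choice of the models, so these shares do not set the 145 apart from other models. In 13 models all 10 bifenthrin larvae were above all 11 copper sulfate larvae, and in 1 model all copper sulfate larvae were above all bifenthrin larvae. The same count was not made over all tested models, so nothing is read from it.

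Among the 54 models higher with bifenthrin, the median ratio to controls was 2.70 with bifenthrin and 1.54 with copper sulfate. These models were sorted by the call between the chemicals, so this gap is a description only. The call with the smallest p was FMg002802 (B3DGS0). It had 33.0, 48.9 and 61.8 CPM (lowest, median, highest) in bifenthrin larvae, 5.66, 8.45 and 12.2 CPM in copper sulfate larvae and 2.33, 5.85 and 9.70 CPM in controls. Copper sulfate larvae overlapped controls here, with 5 of 11 above the highest control. Between the chemicals the log2 fold change was 2.46 ± 0.16 (SE) with an edgeR adjusted p of 2.24e-13. FMg004983 (Q7SXH0) had 26.1, 37.5 and 51.0 CPM in bifenthrin larvae, 7.01, 11.2 and 13.2 CPM in copper sulfate larvae and 4.03, 6.04 and 8.23 CPM in controls. All 10 bifenthrin larvae were above every copper sulfate larva, and the log2 difference was 1.89 ± 0.13 (SE, edgeR adjusted p = 8.65e-13).

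FMg014133 (F1R8W3) was the most abundant of the 145 models. It had 596, 1326 and 1805 CPM in bifenthrin larvae, 273, 365 and 569 CPM in copper sulfate larvae and 222, 236 and 279 CPM in controls. Bifenthrin larvae did not overlap the others, while the lowest copper sulfate larva fell within the controls. Its log2 difference between the chemicals was 1.74 ± 0.14 (SE, edgeR adjusted p = 5.74e-11). For FMg014094 (B0S6K0) and FMg014362 (Q1LVG0) the differences were 1.31 ± 0.09 and 1.32 ± 0.13 (SE, edgeR adjusted p = 2.89e-12 and 1.16e-09). Copper sulfate larvae overlapped controls in both models, with 5 and 6 of 11 above the highest control.

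The 4 models lower with bifenthrin than with copper sulfate included 2 of the more abundant ones. FMg003333 (Q803Q7) had 384, 467 and 565 CPM (lowest, median, highest) in bifenthrin larvae, 599, 809 and 1113 CPM in copper sulfate larvae and 196, 348 and 459.7 CPM in controls. It was the 1 model in which every copper sulfate larva exceeded every bifenthrin larva, and only 5 of 10 bifenthrin larvae exceeded the highest control. The log2 difference was -0.84 ± 0.14 (SE, edgeR adjusted p = 2.5e-05). FMg020641 (Q6P043) had 296, 366 and 451 CPM in bifenthrin larvae, 398, 482 and 630.1 CPM in copper sulfate larvae and 238, 276 and 313 CPM in controls. Of the 11 copper sulfate larvae 9 were above every bifenthrin larva, and edgeR gave a log2 difference of -0.45 ± 0.08 (SE) with an adjusted p of 8.33e-05. FMg006411 (Q6DGE0) and FMg011215 (A0A0R4II42) differed by -0.48 ± 0.13 and -0.27 ± 0.09 (SE, edgeR adjusted p = 0.00402 and 0.0262), and their treated groups overlapped. FMg011215 missed the threshold without bifenthrin replicate 1 or 8 or copper sulfate replicate 7, with edgeR adjusted p of 0.0522, 0.0533 and 0.058.

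For the remaining 87 models no difference between the chemicals was called, which does not show that they responded alike. Their median ratios to control, shaped by the same sorting, were 1.60 with bifenthrin and 1.59 with copper sulfate. The 95% interval of the log2 difference lay wholly between -0.5 and 0.5 for 56 of the 87, and its median width was 0.60. FMg016663, for instance, had a difference of -0.10 with an interval from -0.30 to 0.10, and FMg000476 one of -0.13 (-0.27 to 0.00). At the other end, FMg023141 had a difference of 0.12 with an interval from -1.01 to 1.24. A difference of about 2-fold in either direction lay within or at the limits of that interval. The intervals are not adjusted for the number of models tested, as the calls are. Some models without a call therefore had intervals that exclude 0, such as FMg004703 (-0.34 to -0.03) and FMg012768 (0.03 to 1.18).

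**Figure D4:**
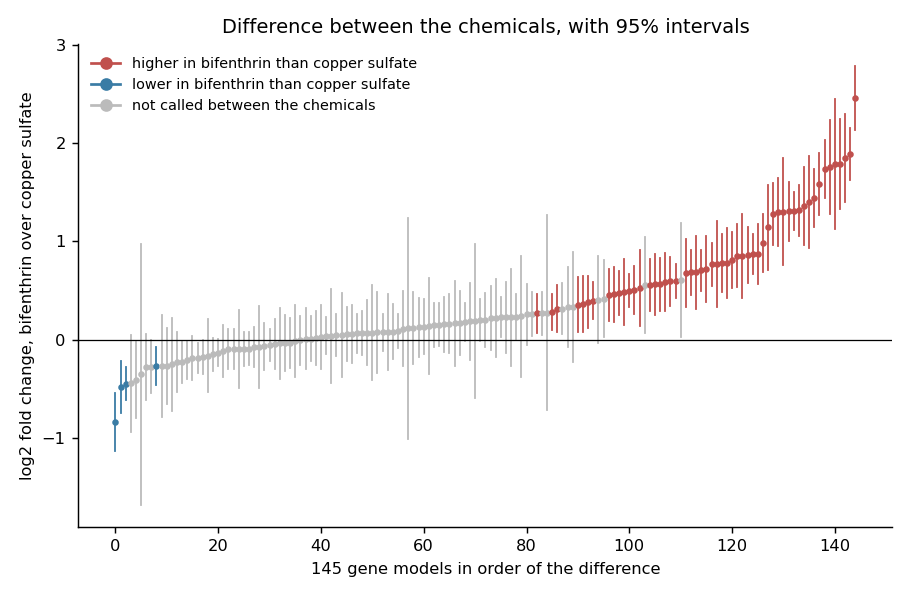
Log2 fold change of bifenthrin over copper sulfate larvae for the 145 gene models in rising order, with 95% intervals as bars (edgeR fit). The 54 models called higher are on the right and the 4 called lower on the left; wide grey bars belong to models that vary strongly within groups.

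Several of the models highest in both groups varied widely between larvae. Ranked by the smaller of the 2 ratios, the first was FMg023141 (F1Q6I6), with ratios of 7.36 for bifenthrin and 6.69 for copper sulfate. Its CPM ran from 5.19 to 43.9 (median 16.9) in bifenthrin larvae, from 0.67 to 80.6 (median 9.69) in copper sulfate larvae and from 0.275 to 8.82 (median 2.54) in controls. Copper sulfate replicates 13 and 8, at 80.6 and 50.4 CPM, were the highest of that group, and 4 of 11 copper sulfate larvae lay within the control range. Without replicate 13 the fitted log2 difference between the chemicals was 0.95 instead of 0.12, and still not called. Next came FMg021283 (E7F4U5), with ratios of 3.46 and 3.02. Control replicate 1 was at 37.5 CPM in this model while the median control was at 9.25 CPM, so only 7 bifenthrin and 5 copper sulfate larvae were above all controls.

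Of the other 8 models in this ranking, FMg024921 and FMg008964 were called between the chemicals by edgeR. In FMg024921, described above, the highest copper sulfate larva was at 5.60 times the lowest. FMg008964 (A0A0R4IUT0) had 14.4, 24.2 and 29.4 CPM in bifenthrin larvae, 5.84, 13.0 and 20.2 CPM in copper sulfate larvae and 2.51, 5.78 and 7.40 CPM in controls. All bifenthrin larvae and 10 of 11 copper sulfate larvae were above every control, and the log2 difference between the chemicals was 0.78 ± 0.17 (SE) with an edgeR adjusted p of 0.000625. The remaining 6 were FMg021987, FMg021236 (E7FAZ1), FMg025750 (F8VWT9), FMg015308 (Q7T273), FMg003088 and FMg012768 (F1R8D1). None of these 6 was called between the chemicals by edgeR, with log2 differences from -0.35 to 0.60, and their control coefficients of variation ran from 37.0 to 139%. Over all 145 models this coefficient had a median of 20.5% in controls, against 17.6% over all models in the count range.

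Among the abundant models, FMg002094 (Q5PR35) had 523, 822 and 1218 CPM in bifenthrin larvae, 297, 484 and 789 CPM in copper sulfate larvae and 237, 316 and 436 CPM in controls. FMg000938 (Q803R1) had 565, 729 and 1100.2 CPM in bifenthrin larvae, 138, 329 and 580.0 CPM in copper sulfate larvae and 103, 228 and 258 CPM in controls. In each, all bifenthrin larvae cleared the controls and 8 of 10 cleared every copper sulfate larva. The log2 differences were 0.81 ± 0.14 and 1.303 ± 0.15 (SE, edgeR adjusted p = 2.71e-05 and 2.54e-08). FMg014816 (Q6PEI6), the second most abundant model, had 522, 605 and 686 CPM in bifenthrin larvae, 551, 677 and 826 CPM in copper sulfate larvae and 377, 461 and 582 CPM in controls. All 3 groups touched, and the chemicals were not called apart in it (log2 difference -0.18 ± 0.08, SE, edgeR adjusted p = 0.106).

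Some models met the rule through a part of each treated group. FMg017391 (B8A5H2) had the second smallest coefficient of variation among controls, 5.98%, with control levels of 31.8, 37.3 and 41.0 CPM (lowest, median, highest). Bifenthrin replicates 2, 13, 14, 10 and 1 were at 36.6, 39.7, 42.3, 44.1 and 47.3 CPM, and replicates 8, 7, 11, 5 and 4 at 71.4, 71.7, 74.0, 74.0 and 78.1 CPM. Copper sulfate replicates 5, 11, 10, 2, 13 and 7 were between 29.8 and 37.5 CPM, and replicates 8, 1, 14, 6 and 4 between 75.1 and 90.7 CPM. Each treated group therefore held 5 larvae at about 2 times the control level, 5 or 6 larvae near the control level and none between 47.3 and 71.4 CPM, while no control was in the upper cluster. Both clusters held larvae of both lanes.

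FMg003088, which has no annotation entry, was split in all 3 groups. In bifenthrin larvae 4 were between 0.748 and 1.44 CPM and 6 between 11.4 and 17.3 CPM. In copper sulfate larvae 3 were between 1.09 and 2.45 CPM and 8 between 8.38 and 18.7 CPM. In controls 8 were at 1.47 CPM or less, 1 of them with 0 counts, and 3 were between 8.98 and 11.99 CPM. The levels of the upper cluster thus partly overlapped between treated and control larvae. More treated larvae than controls stood in it, but the rule asked for at least 5 larvae of each treated group above the highest control. This difference in number is therefore a description only. In this model edgeR called neither treated group apart from controls (adjusted p = 0.101 for bifenthrin and 0.117 for copper sulfate). This model had the largest control coefficient of variation of the 145, and FMg023141 the next. At the other end, FMg025911 (Q6P607) varied by 5.57% among controls. It had 161, 188 and 226 CPM in bifenthrin larvae, 89.8, 118 and 181 CPM in copper sulfate larvae and 77.6, 85.7 and 93.5 CPM in controls, and its log2 difference between the chemicals was 0.59 ± 0.08 (SE) with an edgeR adjusted p of 1.4e-06.

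**Figure D5:**
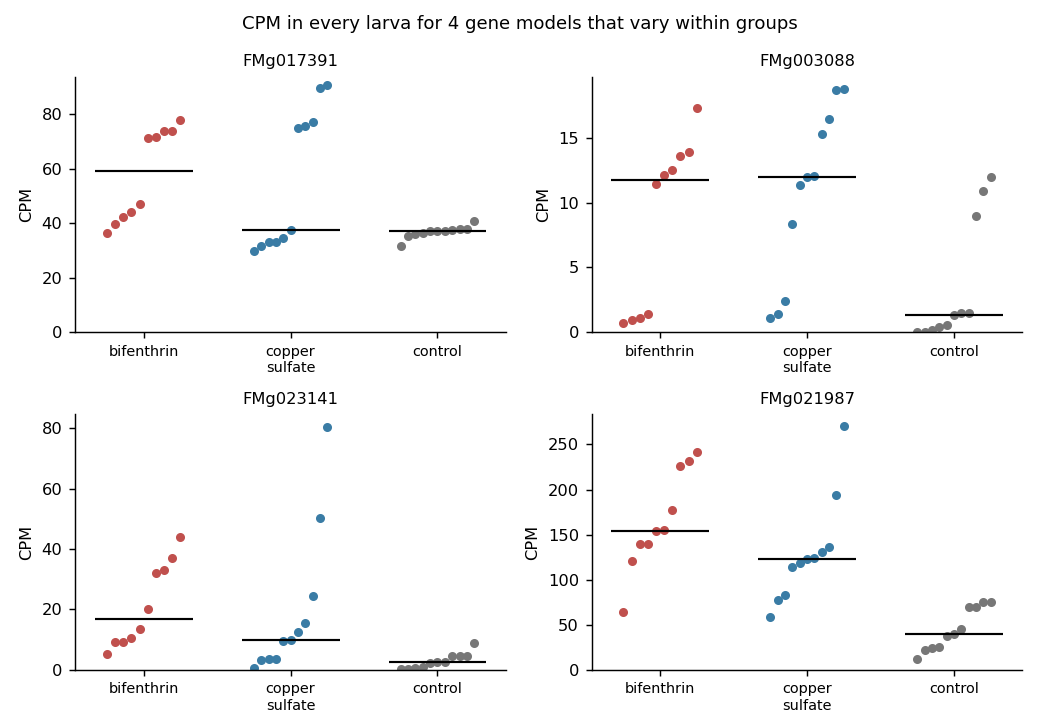
CPM of 4 gene models in every larva, with the group median as a line. FMg017391 has 5 larvae of each treated group above 71 CPM and no larva of any group between 47.3 and 71.4 CPM; FMg003088 is split in all groups; FMg023141 and FMg021987 spread widely within each group.

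Of the 145 models, 132 carry protein accessions, with 129 different entries among them, 2 carry enzyme classes and 11 carry no entry. The share without an entry was 7.59%, against 5.18% over all models in the count range and 15.8% over the whole table. FMg021987 carries the enzyme class of ribonuclease H, an enzyme that cuts the RNA strand of an RNA-DNA duplex. It had 63.7, 154 and 242 CPM (lowest, median, highest) in bifenthrin larvae, 59.0, 123 and 270.4 CPM in copper sulfate larvae and 12.4, 40.0 and 75.2 CPM in controls. Nearly all treated larvae, 9 of 10 and 10 of 11, were above the highest control. The other 15 models of this class ran from 0.902 to 2.70 times control in bifenthrin larvae, with a median of 1.26. In copper sulfate larvae they ran from 0.788 to 1.95 times control, with a median of 0.983. The lowest ratios were in models with few counts, FMg008408 and FMg020134 (mean raw counts 13.2 and 4.84). Of the 15, 4 had both ratios at 1.3 or more, among them the abundant FMg018321 (2.63 and 1.51) and FMg023501 (2.70 and 1.57). In each of these 4, only 1 copper sulfate larva was above the highest control. Their copper sulfate ratios ran from 2.31 to 3.56 in lane 6 and from 0.87 to 0.97 in lane 7. FMg020595 is annotated as an aspartic endopeptidase, a protease with aspartate in its active site, and had ratios of 1.37 and 1.44. Its copper sulfate ratio was 1.89 in lane 6 and 1.05 in lane 7. Of 52 models with this annotation, 1 was a member. The 3 others with a mean raw count of 50 or more had bifenthrin ratios from 1.01 to 1.25. Their copper sulfate ratios ran from 0.493 to 0.918. Models of 1 class may share reads, so the counts of single models are uncertain.

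A few entries were shared by 2 members. Both models with entry A0A0R4IRI3 in the table were members: FMg017101, above, and FMg003629, with ratios of 2.25 for bifenthrin and 1.62 for copper sulfate. Both models with entry E7FFM5 were members as well, with ratios of 2.86 and 1.67 in FMg006703 and 2.19 and 1.49 in FMg006360. Of 5 models with entry F1QYP1, 2 were members. They were FMg024681, the fifth most abundant of the 145 at ratios of 1.60 and 1.68, and FMg021234 at 1.60 and 1.79, while FMg012001 of the same entry was at 1.07 and 0.941. Reads may be divided between such models, since how the authors counted reads that match several models is not given in the sources used here.

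Within groups, members tended to vary together somewhat more in treated larvae than in controls, which is given as a description only. The median Spearman correlation over pairs of members was 0.127 across the 10 bifenthrin larvae, 0.182 across the 11 copper sulfate larvae and 0.0636 across the 11 controls. Over pairs of all models in the count range it was 0.0061, 0.0455 and 0.0545. Values of a larva share its library, depth and lane. The rule chose models by the levels of single treated larvae against controls. What this choice adds to the correlations was not tested. The closest pair was FMg001902 (A8KC25) and FMg001903, which has no entry. After removal of group means their levels correlated at 0.938 across the 32 larvae, and their ratios were alike, at 5.77 and 6.23 for bifenthrin and 1.77 and 1.87 for copper sulfate. FMg001902 had 77.8, 91.3 and 147 CPM (lowest, median, highest) in bifenthrin larvae, 9.35, 32.6 and 52.7 CPM in copper sulfate larvae and 6.72, 16.2 and 28.9 CPM in controls. Every bifenthrin larva was above all others in it. The model numbers of this pair follow each other, and whether they share reads was not tested. FMg016658 (P46098), FMg024338 and FMg025943, the last 2 without an entry, and the endopeptidase model FMg020595 made up 4 of the 8 closest pairs, at 0.855 to 0.878. Within controls alone FMg016658 and FMg024338 correlated at 0.836. The pairs among FMg020595, FMg024338 and FMg025943 were looser there, at 0.436 to 0.518, against 0.794 to 0.964 within the treated groups. Lane was not removed from these levels. The log2 fold change of lane 7 over lane 6 was -0.31 in FMg016658 and -0.37 in FMg024338. It was -0.45 in FMg025943 and -0.43 in FMg020595. The unadjusted edgeR p-values of these 4 models were 0.069, 0.0087, 0.0081 and 0.0048, in this order. After adjustment edgeR called lane for none of them, nor for any other tested model. What lane adds to the correlations was not tested. FMg021234 and FMg024681, which share entry F1QYP1, were another of the 8, at 0.858.

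The rule used the larvae of both lanes, so ratios above 1 within a lane were largely set by the choice of models and are given as a description. The bifenthrin ratio was above 1 in all 145 models in lane 6 and in lane 7, with medians of 1.86 and 1.90. For copper sulfate it was above 1 in 145 models in lane 6 and in 142 in lane 7, with medians of 1.72 and 1.50. The lane-by-treatment interaction was fitted after the data had been seen. For copper sulfate edgeR called it for 0 of the 145 models and for 0 (0%) of all tested models. At an unadjusted p under 0.05 there were 15 of the 145 (10.3%) and 525 of all 21174 (2.48%). The copper sulfate difference was smaller in lane 7 for 104 of the 145, a count not made over all tested models. The median log2 interaction was -0.14 over the 145, against 0.01 over all tested models. The rule had chosen the 145 by the copper sulfate difference itself, so these values do not set them apart from other models. What this choice adds to them was not tested. For bifenthrin edgeR also called it for 0 of the 145 and for 0 (0%) of all, with 5 (3.45%) and 715 (3.38%) at an unadjusted p under 0.05. These interaction terms were fitted with edgeR alone.

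The ratio condition did not fall at a natural break. Just inside it were FMg002793 (Q32PK2), FMg020809 (E7FD66) and FMg016398 (Q3UYR4), whose smaller ratios, all for copper sulfate, were 1.301, 1.303 and 1.304. Just outside, among models that met the other conditions, were FMg007466 (Q66HV5) with a bifenthrin ratio of 1.299, and FMg011441 (B8JI17) and FMg003909 (Q5RIN4) with copper sulfate ratios of 1.298 and 1.295.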

How the data were processed

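The authors deposited 1 table of raw counts, whole numbers per gene model and larva with no normalization, in which each column was matched to a larva by its description label. RNA was taken from single larvae and 250 ng per larva went into poly(A)-selecting SENSE mRNA-Seq libraries, per the labels' protocols. The submitters' processing notes list bcl2fastq (2.19.1), STAR and limma; no build, annotation, read counter or strand setting is given in the sources used here. Of the model numbers, 0 matched the RefSeq gene table of the species, and the 7 lists of enzyme classes drawn up for this report matched 0 models.

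CPM values use library totals, as the member rule does. Tests used edgeR 4.0.16 in R 4.3.3: filterByExpr (21174 models kept), TMM scaling, all 32 larvae with group and lane as terms, quasi-likelihood F tests, with Benjamini-Hochberg adjustment over all models, called at 0.05. SEs are the log2 fold change divided by the square root of F, and 95% intervals use them. The fit was also run on simulated independent larvae without lane or beaker effects, which cannot show how reliable the calls are in these data. DESeq2 1.42.0 and other alternatives are in the closing section. Library totals give the depth. Every pair of larvae differed beyond sampling noise (lowest chi-square 9.87 per degree of freedom). The members and lists were chosen with earlier results of these data known. Named models were the 10 with the largest smaller ratio, the 6 most abundant, up to 5 per direction with the smallest p between the chemicals, those with an enzyme class, those at the threshold, those with all treated larvae above all controls, and the extremes of control variation; models sharing an entry or a close pattern were named after their values were seen.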

Additional observations from a re-analysis of the deposited data

Results flagged for a closer look

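Of 39 results examined for a bifenthrin larva far from the other 9, 1 stood out, where chance alone would single out about 1 in 20. FMg024681 (F1QYP1) was at 268 CPM in bifenthrin replicate 14, next to 531 CPM in the nearest bifenthrin larva and a group median of 633 CPM. Groups of 11 larvae were not examined in this way, but low larvae also occurred there in this model. In copper sulfate larvae 8 were at 608 CPM or more and the others between 272 and 322 CPM. In controls 10 were at 278 CPM or more and the lowest at 147 CPM.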

How the results depend on the processing

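The number of models that met the rule was 75 at a ratio of 1.5, 61 with at least 8 larvae, and 217 with TMM-scaled CPM, 142 of them shared with the 145; leaving out single larvae gave 119 to 165. Models called over the whole table fell to 5278 for bifenthrin against control in lane 6 alone and 4055 in lane 7 alone, to 382 and 87 for copper sulfate against control, and to 2630 and 3783 between the chemicals; main counts were 8096, 1181 and 6768. These single-lane fits hold fewer larvae. Leaving out single larvae gave 7503 to 8346, 923 to 1376 and 6164 to 6966. Members called higher with bifenthrin than copper sulfate numbered 33 in lane 6 alone and 43 in lane 7 alone, and 49 to 58 without single larvae; members called lower numbered 2 in lane 7 alone and 3 to 6 without single larvae. DESeq2 called 56 and 4. The shares of all tested models called in each direction were not counted for any of the alternative fits. The member counts of these fits are therefore a description only. With the replicate number as a block, copper sulfate against control had 727 models, and members between the chemicals were 54 and 4. Same-numbered larvae deviated together in few cases (8 of 30 pairs above a correlation of 0.1, median -0.0081). Of 32 larvae, 3 correlated best with their own number, and the numbers pair no larvae by label. Larvae of the same number were all run in the same lane, so the block took the place of the lane term. Lane was not removed before these correlations. Log2 differences between the chemicals that changed sign, none called, were FMg023141 (-0.068), FMg021283 (-0.12) and FMg025750 (-0.079) in lane 6 alone, FMg015308 (-0.36), FMg003088 (0.16), FMg020595 (0.29) and FMg002793 (-0.024) in lane 7 alone, and FMg003088 (0.0093) with the block. Leaving out single larvae, tried for named models after the data had been seen, changed the call of 4 of the 37 named models between the chemicals: FMg011215 lost it without 3 larvae, and FMg016398, FMg004703 and FMg001588 gained one without 14, 6 and 2 larvae. It changed the sign, with no call, in FMg023141 (-0.05 to 0.95), FMg024681 (-0.15 to 0.02) and FMg020595 (-0.13 to 0.03). In lane 6 alone 4 of the named models called in the main fit lost the call between the chemicals, and 1 other gained one. In lane 7 alone 2 lost it. The cause of these changes was not tested. Precision is limited by 10 or 11 larvae per group and by unknown beakers.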
